A study of Mus musculus with 4 samples.

Results

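The cells described here carried transcripts of the postmeiotic male germline. A cell was counted among them when its unique molecular identifiers (UMIs, the molecular tags that count single transcripts) summed to at least 10 over Prm1, Prm2, Tnp1, Tnp2, Oaz3 and Smcp. Of 1249 cells 135 met this rule (10.8%, exact Clopper-Pearson 95% interval 9.14 to 12.7), and they are called carrying cells. The remaining 1114 cells are called other cells. The rule read the UMIs of these 6 genes in the same cells and nothing else, so the levels of the 6 genes are given as a description, with no test.

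EOMES-tdTOMATO+ cells were sorted by fluorescence from testes of 4 wk old mice of B6N.Cg background with the Eomes allele tm1.1(icre/ERT2)Reb. Every mouse carried the Eomes-iCreERt2-tdTomato knock-in, in which the Eomes locus drives the reporter, so the sort selected fluorescence and not Eomes mRNA. The groups differed in Plzf, which codes for a zinc finger protein of undifferentiated spermatogonia and is listed under its symbol Zbtb16. Plzf +/+ cells filled plates 1 and 2 and shared plate 4 with Plzf lu/lu cells, which also filled plate 3 and carry the luxoid mutation on both alleles. Each plate was 1 sample. The sample of plate 4 was split by genotype, and each plate and genotype is called a library here. This gave 3 Plzf +/+ and 2 Plzf lu/lu libraries, of which the 2 from plate 4 share a plate and are not independent. Littermates without the reporter set the gate, a dye gate removed dead cells, and 1 cell went into each well. The labels name no animals, so the spread between libraries may be technical and need not hold the spread between mice. Zbtb16 had 164, 126 and 141 UMIs on Plzf +/+ plates 1, 2 and 4 against 46 and 3 on Plzf lu/lu plates 3 and 4. These are 3′ tags and need not lie in the mutated part of the gene.

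Spermatids are the haploid cells that follow meiosis. While they elongate, transition proteins (Tnp1 and Tnp2) and then protamines (Prm1 and Prm2) take the place of most histones and pack the sperm genome. Smcp codes for a cysteine-rich protein of the mitochondrial sheath of the sperm tail, and Oaz3 for an antizyme of polyamine metabolism that is made in spermatids. Many of these mRNAs are stored for days before they are translated. Spermatogonia, the cells that the reporter was built to mark, lie at the other end of the lineage, before meiosis.

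The stretches upstream of the rule's genes are shown because CREM, an activator of postmeiotic genes, acts through cyclic AMP response elements in many spermatid promoters. They are the 100 bases before the annotated start in the RefSeq promoter windows of GRCm38.p6, all read on the minus strand and printed 5′ to 3′. For Smcp 30 bases are shown that lie just past its start. Capitals mark matches to TGACNTCA or its reverse complement TGANGTCA, which were searched on both strands and overlap each other in the palindrome TGACGTCA. Of the 6 genes 5 had an entry, and Oaz3 had none.
Prm1, chr16:10796824-10796923: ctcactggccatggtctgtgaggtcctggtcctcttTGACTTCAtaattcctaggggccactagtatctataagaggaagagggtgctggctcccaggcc
Prm2, chr16:10792106-10792205: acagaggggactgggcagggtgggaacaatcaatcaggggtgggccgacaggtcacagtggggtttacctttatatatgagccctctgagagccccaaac
Tnp1, chr1:73015900-73015999: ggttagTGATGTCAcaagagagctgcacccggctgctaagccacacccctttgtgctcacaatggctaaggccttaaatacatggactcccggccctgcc
Tnp2, chr16:10788656-10788755: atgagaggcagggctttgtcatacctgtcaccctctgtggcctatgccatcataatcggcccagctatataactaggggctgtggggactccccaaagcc
Smcp, chr3:92589031-92589060: ggagagtattaTGATGTCAtaaaagagctg

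The match began 64 bases before the start of Prm1, 94 bases before that of Tnp1 and at base 25 of Smcp. Prm2 and Tnp2, which lie beside Prm1 on chromosome 16, had none of these letters within the 300 bases of their windows. The motif stood in the windows of 3 of the 5 genes, and in 18 of 63 genes (28.6%) of the 5 spermatid lists described further on. It stood in 2 of 18 meiotic genes, in 1 of 17 genes of undifferentiated spermatogonia and in 10.0% of all 27025 genes with a window (8.83% of 32851 windows). A match describes the letters and is not evidence of a bound site.

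Carrying cells were found in every library. They made up 17 of 317 cells (5.36%), 40 of 303 (13.2%) and 39 of 277 (14.1%) on Plzf +/+ plates 1, 2 and 4. On Plzf lu/lu plates 3 and 4 they made up 36 of 314 (11.5%) and 3 of 38 (7.89%). Plate 1 had the lowest share, and the shares of both genotypes overlapped. The mean library share was 10.9% ± 4.80 (SD, n = 3) for Plzf +/+ and 9.68% ± 2.52 (SD, n = 2) for Plzf lu/lu, a difference of -1.20 percentage points (exact two-sided permutation test over libraries, p = 0.7). The 3 and 2 libraries can be split in 10 ways, so this test cannot go below 0.1. It treats the 2 libraries of plate 4 as separate units. The sign of the difference turned with the cutoff, to 0.904 points at 5 UMIs and 0.228 at 20 UMIs, and with the libraries left out. Plate 4 held both genotypes, at 14.1% for Plzf +/+ and 7.89% for Plzf lu/lu, while on plates 1 to 3 plate and genotype cannot be told apart.

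**Figure D1:**
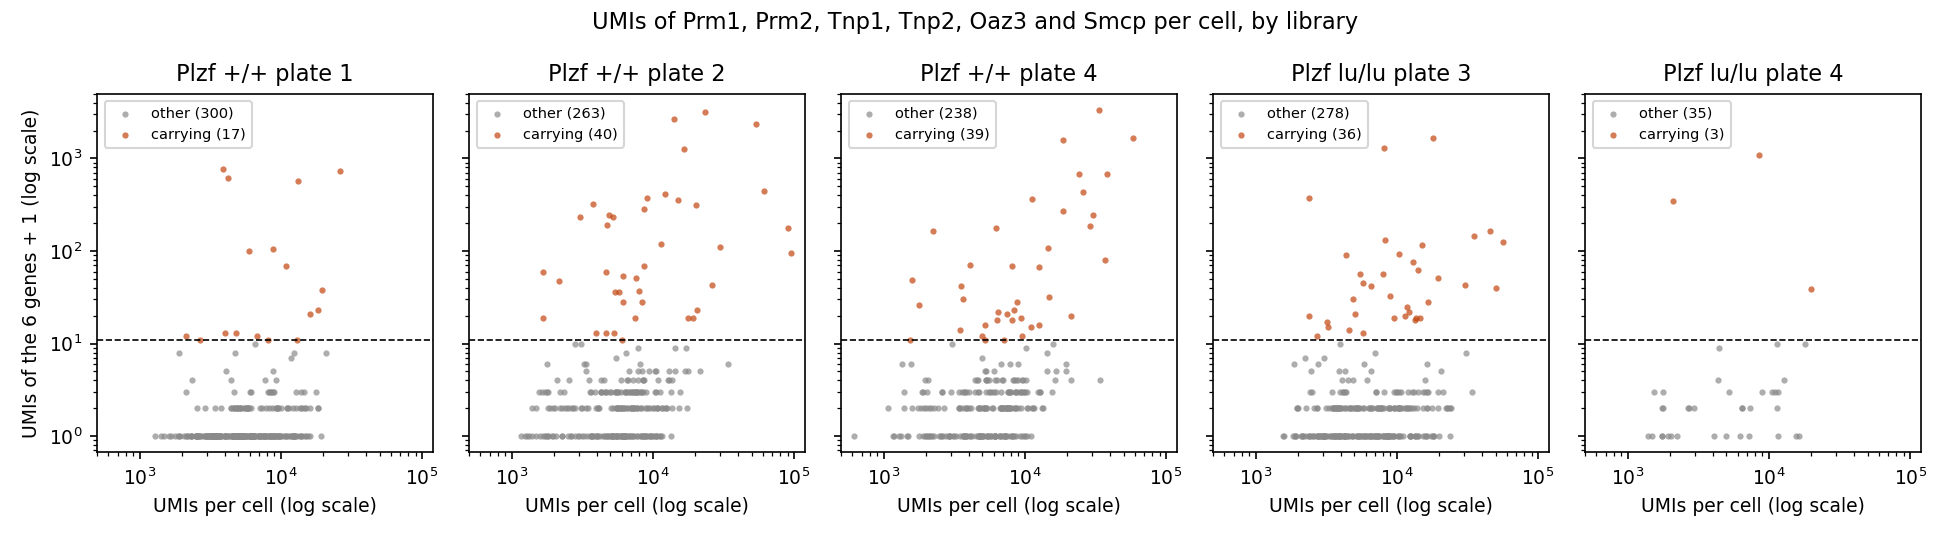
Each point is a cell, with its UMIs on the x axis and the UMIs of Prm1, Prm2, Tnp1, Tnp2, Oaz3 and Smcp plus 1 on the y axis (both log scales), 1 panel per library; the dashed line is the rule at 10 UMIs. Carrying cells run from 10 to 3348 UMIs of the 6 genes, the Plzf lu/lu plate 4 library holds 3 of them, and the deepest cells of plates 2, 3 and 4 lie mostly above the line.

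Carrying cells held more UMIs than other cells in every library. Their UMIs per cell ranged from 1534 to 95069 with a median of 8588, against a median of 5724 for other cells. The library medians of carrying cells were 8056, 8155 and 8724 UMIs on Plzf +/+ plates 1, 2 and 4 and 9931 and 8565 on Plzf lu/lu plates 3 and 4. Those of other cells were 5497, 6030.0, 5452, 5920.0 and 4950.0 in the same order, and carrying cells were higher in 5 of 5 libraries. The mean difference was 3117 ± 769 UMIs (SD, n = 5; exact sign-flip permutation test, two-sided p = 0.063, the smallest that 5 libraries allow). This counts both libraries of plate 4 as separate units. Without Plzf lu/lu plate 4, so that each plate entered once, it was 2992 ± 828 UMIs (SD, n = 4; exact sign-flip permutation p = 0.125, the smallest possible). A rule at 10 UMIs is reached more easily by a deep cell. With a cutoff of 0.2% of a cell's UMIs in its place 115 cells qualified, and the difference was 319 UMIs (exact permutation p = 0.688). Of the 24 cells with over 4 times the median UMIs of their genotype 20 were carrying cells, and 15 of these 24 qualified by the 0.2% cutoff. Mitochondrial genes held 1.19 percentage points less of the UMIs of carrying cells (lower in 4 of 5 libraries, exact sign-flip permutation p = 0.125), or 0.483 points less without the 3 carrying cells of Plzf lu/lu plate 4.

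Within the carrying cells the amounts spanned a wide range. They held 34121 of the 35208 UMIs of the 6 genes in all cells (96.9%), and the remaining 1087 lay in 539 other cells with 1 to 9 UMIs each. A carrying cell had 10 to 3348 of these UMIs (median 44), or 0.0763% to 19.6% of its total (median 0.576%). All 6 genes were present in 69 of the 135 cells, at least 5 genes in 110, and no carrying cell had fewer than 3. At the edge of the rule, 8 cells with 9 UMIs held 0.0499% to 0.321% of their total in these genes, and 7 cells with 10 UMIs held 0.0763% to 0.652%. By number, 39 cells had 10 to 19 UMIs, 31 had 20 to 49, 19 had 50 to 99 and 46 had 100 or more.

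Prm2 and Prm1 had the most UMIs of the 6 genes in the pooled carrying cells. Summed they gave 10677 and 9275 UMIs, against 4450 for Tnp1, 3965 for Tnp2, 3860 for Smcp and 1894 for Oaz3. Their mixture and order differed between libraries. On Plzf +/+ plate 1 Smcp (595 UMIs) stood beside Prm1 (586), and Oaz3 (391) stood above Tnp1 (167) and Tnp2 (156). Transition proteins gave 5.40% (Tnp1) and 5.05% (Tnp2) of the 6 genes' UMIs in Plzf +/+ plate 1, but 14.8% and 12.5% in plate 2, 15.1% and 14.3% in plate 4 and 12.3% and 10.6% in Plzf lu/lu plate 3. In the 3 carrying cells of Plzf lu/lu plate 4 they gave 0.204% and 1.22%, beside 52.9% for Prm2. Across the other cells Prm2 gave 30.5%, Prm1 17.8%, Smcp 17.7%, Tnp1 17.2%, Tnp2 10.8% and Oaz3 6.07% of the 1087 UMIs.

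Single cells held different mixtures of the 6 transcripts. In the 46 cells with 100 or more UMIs of the 6 genes (36 Plzf +/+ and 10 Plzf lu/lu), Tnp1 and Tnp2 together gave 0.261% to 43.8% of these UMIs, with a median of 27.5%. In 9 of these cells the transition proteins gave under 5%, and the protamines, Smcp and Oaz3 gave the rest. These 9 cells came from every library (2, 1 and 2 from Plzf +/+ plates 1, 2 and 4, and 2 each from Plzf lu/lu plates 3 and 4). Their summed counts were 2897 UMIs of Prm2, 824 of Prm1, 814 of Smcp and 540.0 of Oaz3, against 10 of Tnp1 and 35 of Tnp2. A cell of Plzf +/+ plate 1 held 308 UMIs of Smcp and 213 of Oaz3 beside 80 of Prm2, 2 of Prm1, 3 of Tnp2 and none of Tnp1.

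The 9 cells poor in transition protein mRNA had low median depth and gene number but varied widely. They held 2079 to 30393 UMIs and 751 to 7615 genes. Their medians were 3905 UMIs, 1123 genes and 0.673% mitochondrial UMIs, and the 6 genes took 0.796% to 19.6% of their UMIs (median 14.4%). The other 37 cells with 100 or more had medians of 17870.0 UMIs, 5540.0 genes and 2.75% mitochondrial UMIs, with a median of 2.80% in the 6 genes. Dazl was found in 2 of the 9 cells and in 33 of the 37, and Gfra1 in 1 and in 24. The split at 5% was chosen after these values were seen and carries no test.

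**Figure D2:**
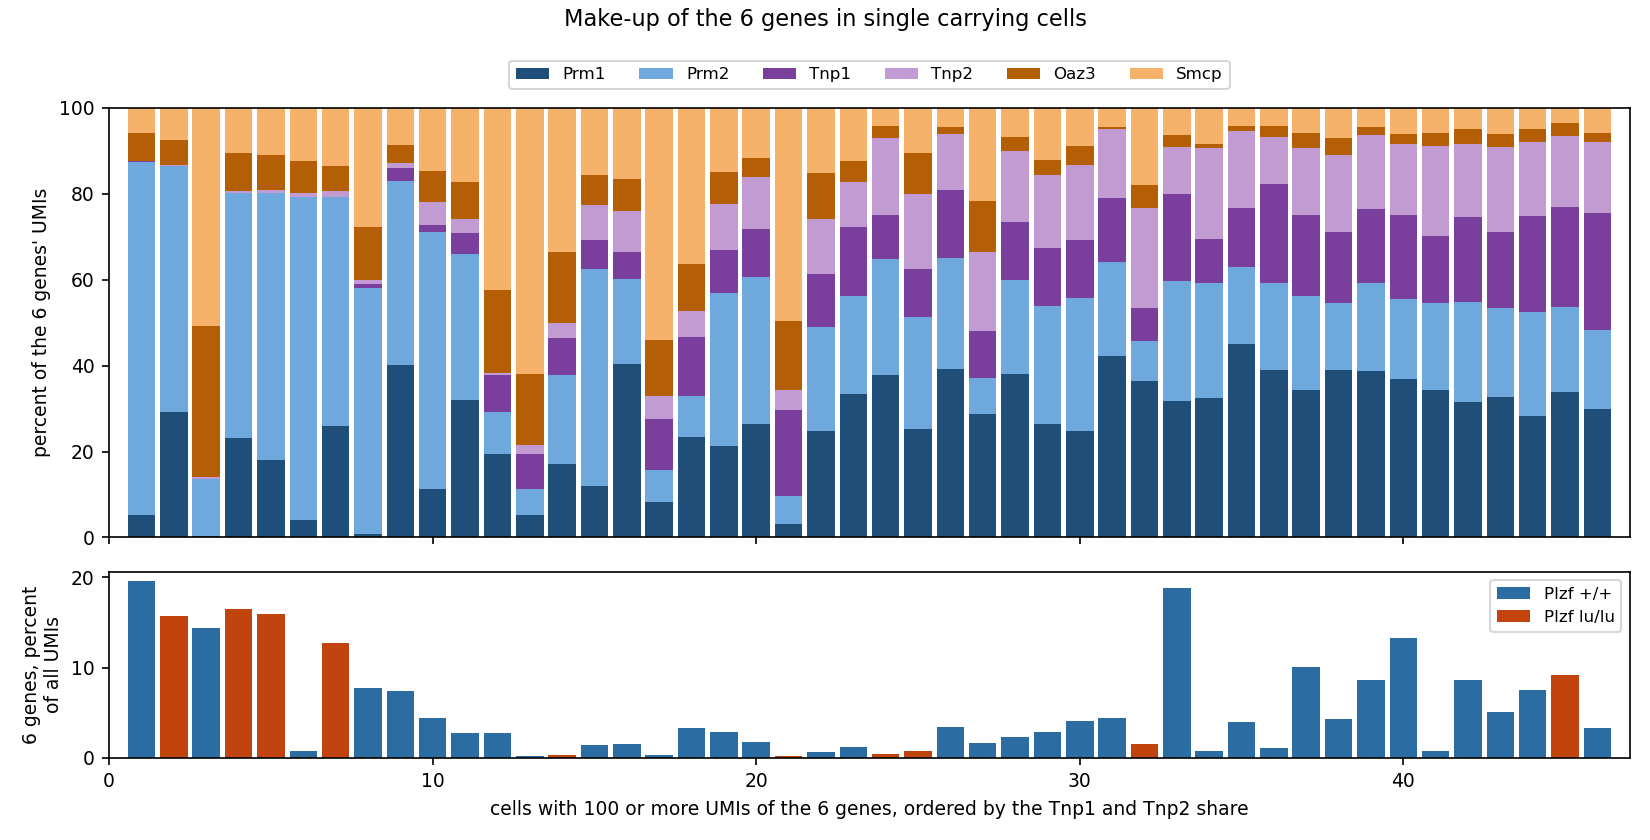
Bars are the 46 cells with 100 or more UMIs of the 6 genes, ordered by their share of Tnp1 and Tnp2; the upper panel gives the percent of the 6 genes' UMIs from each gene and the lower panel the percent of all UMIs of the cell from the 6 genes, colored by genotype. The transition protein share climbs from 0.261% to 43.8% by this ordering, while the 9 cells in which the 6 genes hold 10% or more of all UMIs (up to 19.6%) have transition protein shares of 0.261% to 36.0%, with a median of 0.691%.

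To describe the carrying cells beyond the rule, UMIs were summed per library over carrying and over other cells, and the sums were compared with edgeR's quasi-likelihood test with the library as a block. The 4 libraries with at least 5 carrying cells entered; the Plzf lu/lu plate 4 library, with 3, did not. The cells were picked by 6 genes of the same libraries, so the test gives the size of a difference and its repeat over 4 libraries, and not an independent grouping. Of 11221 genes tested 3257 were higher (29.0%) and 1513 lower (13.5%) in carrying cells at an adjusted p under 0.05, and the median log2 fold change of all genes was -0.04. This split depends on the scaling: without TMM factors 2597 genes were higher and 4120 lower, and the median was -0.43. CPM below are UMIs per 1000000 UMIs of the cells after TMM scaling, except where they are called unscaled, and 4 values stand in the order Plzf +/+ plates 1, 2 and 4 and Plzf lu/lu plate 3.

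The genes of 5 spermatid lists rose in carrying cells. The members that passed the filter on low counts were 6 of the 7 genes listed for spermatid chromatin, 24 of 24 for the sperm tail and mitochondrial sheath, 16 of 17 for the acrosome and egg binding, 10 of 11 for sperm metabolism and 14 of 14 for spermatid kinases and gene regulation. Each of these that passed the filter was called higher and none lower, beside 29.0% of all genes called higher. Their median log2 fold changes were 4.98, 4.30, 4.00, 3.28 and 3.69 in that order, against -0.04 for all genes. A gene seen only in carrying cells could pass the filter through them alone, and the lists were chosen with results of these data known, so these counts are a description. Over the 17 alternative settings the lowest of the 5 medians was 2.23 and the highest 5.12.

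The median of the chromatin list rested on 6 genes. It was 3.40 without Plzf +/+ plate 1, 3.32 without Plzf lu/lu plate 3 and 3.14 with no filter, where 7 genes were fitted and the sperm tail list stood at 4.11, 4.27 and 3.99. Hspa2, a chaperone that meiotic and postmeiotic cells make, stood at 335, 926, 660.0 and 679 CPM in carrying cells and 28, 77.5, 77.4 and 56 CPM in other cells. All 4 libraries were higher in carrying cells and the groups did not overlap (edgeR, log2 fold change 3.45 ± 0.16 SE, adjusted p = 1.36e-15). H2afb1, a histone H2A variant of the testis, stood at 382, 330.1, 358 and 186 CPM against 0, 1.01, 1.89 and 0.888 CPM, on 7 UMIs in other cells. Its log2 fold change was 8.29. Prm3 (6.79), which lies between Prm2 and Tnp2, and Hils1 (6.50), a linker histone of elongating spermatids, followed.

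The sperm tail genes were led by Meig1, needed for spermatid elongation, at 1487, 4129, 3156 and 3314 CPM in carrying cells and 87.2, 271, 276 and 220.3 CPM in other cells (edgeR, log2 fold change 3.85 ± 0.14 SE, adjusted p = 2.10e-17). Odf2, which codes for an outer dense fiber protein, Tcp11 and Ropn1l had log2 fold changes of 4.11, 4.81 and 3.26. Akap4, the main anchoring protein of the fibrous sheath, stood at 618, 494, 425 and 220.2 CPM against 1.78, 5.03, 8.18 and 3.55 CPM. Its log2 fold change was 6.55 ± 0.27 (SE). Odf1, another outer dense fiber gene, stood at 553, 562, 625 and 326 CPM against 4.45, 9.05, 16.4 and 12.4 CPM (5.59 ± 0.24 SE). For both genes Plzf lu/lu plate 3 had the lowest level in carrying cells of the 4 libraries, and carrying and other cells did not overlap. The 3 carrying cells of Plzf lu/lu plate 4, outside the fit, had the highest, with 54 UMIs of Akap4 and 41 of Odf1 (1761 and 1337 unscaled CPM).

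Crisp2, a protein of the acrosome and tail, was the most abundant gene of the acrosome list, at 2578, 3482, 2884 and 1878 CPM in carrying and 58.3, 130.3, 250.3 and 127 CPM in other cells (edgeR, log2 fold change 4.37 ± 0.29 SE, adjusted p = 1.82e-07). Dkkl1 (3.69), Spink2 (3.40) and Zpbp2 (3.41) also rose. Acr, the protease acrosin, stood at 145, 238, 149 and 177 CPM against 2.22, 13.1, 20.8 and 8.88 CPM, a log2 fold change of 4.04 ± 0.29 (SE). Among the 4 libraries fitted, Acr was lowest in Plzf +/+ plate 1 in carrying and in other cells.

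Ldhc, the germ cell lactate dehydrogenase that spermatocytes already make, was the most abundant gene of the metabolism list. It stood at 2789, 6342, 5452 and 3933 CPM in carrying and 121, 400.4, 617 and 358 CPM in other cells, so that other cells also held it in every library (edgeR, log2 fold change 3.76 ± 0.18 SE, adjusted p = 3.24e-15). Gapdhs, the sperm form of a glycolytic enzyme, stood at 1513, 1088, 1039 and 626 CPM against 0.889, 5.53, 10.1 and 7.11 CPM, with a log2 fold change of 7.47. Pgk2 (4.99) and Cox8c (3.18) rose as well. Among regulators, Ybx3 (3.13) and Ybx2 (3.97), which bind and hold stored spermatid mRNAs, and Tbpl1 (1.74), a TBP-like factor that spermatids need, were higher, and so was Tssk6 (7.06), a kinase of elongating spermatids. Crem, named here for the motif shown above and not by the rule for named genes, stood at 132, 307, 253 and 174 CPM against 13.3, 26.2, 27 and 28.4 CPM (3.16 ± 0.20 SE).

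**Figure D3:**
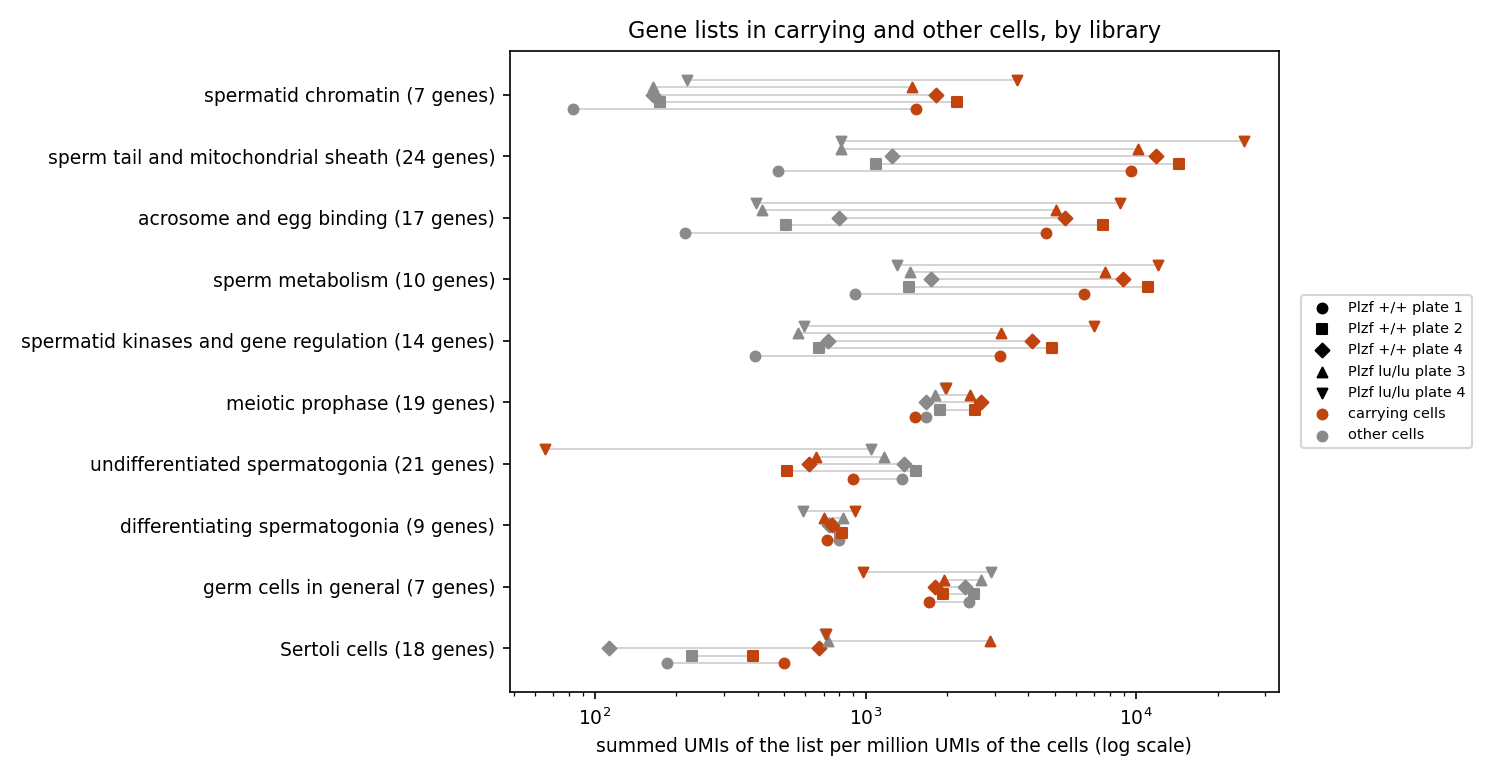
Summed unscaled CPM of each gene list (UMIs per 1000000 UMIs of the cells, log scale), in carrying cells (orange) and other cells (gray) of each library, a symbol per library. In every library the 5 spermatid lists lie to the right in carrying cells and the undifferentiated list lies to the left, with 9611 to 25011 against 474 to 1251 for the sperm tail.

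Part of the meiotic prophase list was higher. Of 20 listed genes 17 passed the filter, 10 were higher and none lower, beside 29.0% higher and 13.5% lower among all genes, and the median log2 fold change was 0.73. Syce1, of the central element of the synaptonemal complex, stood at 217, 498, 525 and 317 CPM in carrying and 125, 141, 133 and 129.7 CPM in other cells (edgeR, log2 fold change 1.53 ± 0.18 SE, adjusted p = 4.36e-08). Sycp2 (0.73) and Syce2 (0.73) were called higher too, Sycp2 in 3 of 4 libraries. Sycp1, of the transverse filaments, stood at 210.5, 362, 365 and 317 CPM against 289.5, 303, 331 and 274 CPM, and its difference did not pass the test (edgeR, log2 fold change 0.08 ± 0.16 SE, adjusted p = 0.712). Sycp3, of the lateral elements, was higher in 3 of 4 libraries and lower in plate 1 (edgeR, log2 fold change 0.68 ± 0.19 SE, adjusted p = 0.00565), and its fold change was -0.000215 without the cells over 4 times the median UMIs. The calls of Sycp2 and Sycp3 did not hold without Plzf +/+ plate 4 (0.50 and 0.43), that of Sycp2 without Plzf lu/lu plate 3 (0.50) and that of Sycp3 without Plzf +/+ plate 2 (0.47). Syce2 stood at 0.52 without Plzf +/+ plate 4 and was not called there. Sycp2 stood at 0.03 without the deep cells and 0.09 without the cells with 10 or more Sertoli list UMIs, and Syce2 at 0.26 without the latter, with their calls lost. The largest log2 fold changes of the list were 3.50 for Ccna1, a cyclin of late prophase, and 2.26 for Piwil1, the piRNA binder of pachytene cells and round spermatids, both chosen after their values were seen. The list had 5 of 15 genes higher (18.3% of all genes in that fit) and a median of 0.03 without the deep cells. Without the cells that had 10 or more Sertoli list UMIs, 4 of 16 were higher, near the 21.4% of all genes in that fit, 1 was lower, and the median was 0.16.

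**Figure D4:**
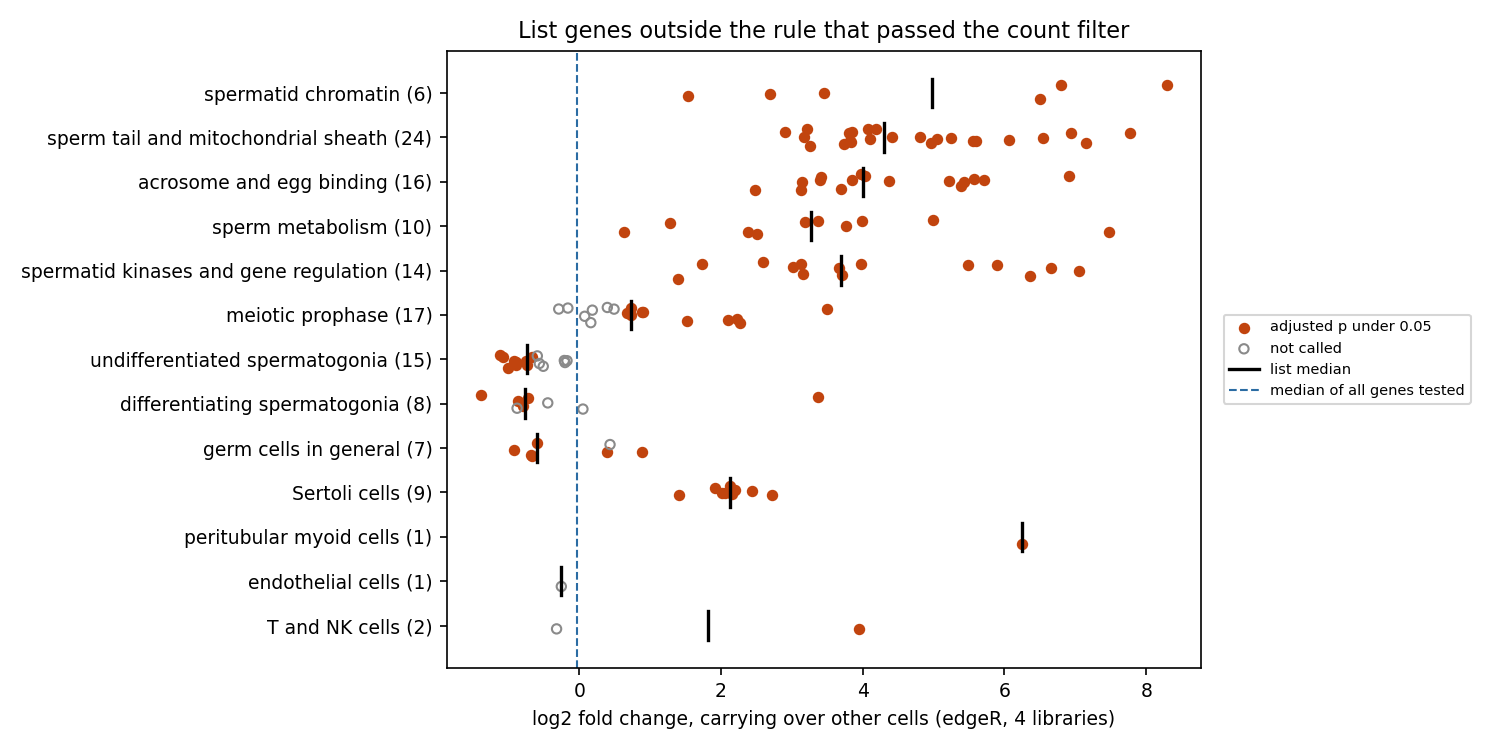
Each point is a list gene outside the rule that passed the filter on low counts, placed by its log2 fold change between carrying and other cells (edgeR, 4 libraries); filled points passed an adjusted p of 0.05, black bars are list medians and the dashed line is the median of all genes tested (-0.04). The 5 spermatid lists and the Sertoli list lie to the right of the line, meiotic genes straddle it, and most spermatogonial genes lie to its left.

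Transcripts of the sorted cell type were present in carrying cells, at lower levels. Of 22 listed genes of undifferentiated spermatogonia 15 passed the filter, 9 were lower and none higher, beside 13.5% lower among all genes, with a median log2 fold change of -0.74. Gfra1, the GDNF co-receptor of stem cells, stood at 164, 123, 142 and 73.4 CPM in carrying and 215, 244, 221 and 134 CPM in other cells. It was lower in carrying cells of 4 of 4 libraries (edgeR, log2 fold change -0.74 ± 0.18 SE, adjusted p = 0.00111), although carrying cells of Plzf +/+ plates 1 and 4 lay above the other cells of Plzf lu/lu plate 3. Without the cells over 4 times the median UMIs its log2 fold change was -0.43 and not called. Sall4, a zinc finger factor of spermatogonia, fell too (-0.89). Id4 (-0.20, adjusted p = 0.452), Etv5 (-0.59, 0.0519), Zbtb16 (-0.51, 0.109) and Eomes (-0.21, 0.766) did not pass the edgeR test. Over the 17 alternative settings 3 to 13 genes of the list were lower, and the share of all genes lower moved too: 3 of 17 without the deep cells stand beside 3.71% of all genes, and 13 of 15 without scaling factors beside 36.7%. None of the list was higher under these settings, and the median stayed below 0.

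Genes of differentiating spermatogonia and general germ cell genes moved both ways. Of the 8 genes of differentiating spermatogonia that passed the filter, out of 9, 4 were lower and 1 was higher, beside 13.5% lower and 29.0% higher among all genes. The higher gene was Dmrtb1, which controls the step from spermatogonia to meiosis, at 289, 743, 495 and 381 CPM against 13.3, 55.3, 81.8 and 44 CPM (edgeR, log2 fold change 3.36 ± 0.21 SE, adjusted p = 1.04e-12). Ccnd2 (-0.86), Sohlh1 (-0.73) and Stra8 (-0.79) were lower, and Kit, at 0 to 18.6 CPM in carrying cells, did not pass (-0.88, edgeR adjusted p = 0.125). The call of Sohlh1 was lost without Plzf +/+ plate 2 (-0.46), Plzf +/+ plate 4 (-0.63) or Plzf lu/lu plate 3 (-0.90), and also without the deep cells (-0.41), with the 0.2% cutoff (-0.95) and without the replicate block (-0.65). That of Stra8 was lost without the deep cells (-0.35) and without the cells with 10 or more Sertoli list UMIs (-0.69). Dazl, the RNA-binding protein of germ cells before and during meiosis, stood at 664, 530.0, 581 and 669.7 CPM in carrying and 868, 927, 853 and 1241 CPM in other cells. It fell in 4 of 4 libraries with no overlap of the groups (edgeR, log2 fold change -0.67 ± 0.14 SE, adjusted p = 2.35e-04). Of the general germ cell list 2 of 7 genes were higher and 4 lower, beside the same shares of all genes: Mael rose (0.88), Mov10l1 fell (-0.60), and Ddx4, the germ cell helicase, was higher by 0.40 (edgeR adjusted p = 0.0297), a call lost under 15 of the 17 alternative settings.

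Shares of cells with a UMI were compared at own depth and after thinning each cell to 2000 UMIs, which left 130 carrying and 1037 other cells. Cells in which the Sertoli list made up at least 1% of UMIs (27 cells, 22 after thinning) stand beside them as cells that should lack germ cell transcripts, although 6 of the 27 are carrying cells. They also held Ddx4 in 33.3% and Sycp3 in 29.6% of cells, and at 2000 UMIs Sycp3 was in 31.8% of them, 29.2% of carrying and 31.8% of other cells, so no difference in Sycp3 is read from shares. Median depths were 8588, 5724 and 3162 UMIs. Gfra1 was found in 73 of 135 carrying cells (54.1%) and 56.3% of other cells, and in 0 of the 27, which at this depth allows a share of cells with a UMI of up to 11.1%. At 2000 UMIs its shares were 23.8% and 34.0%, and they were lower in carrying cells of Plzf +/+ plates 1, 2 and 4 (23.5%, 28.9% and 22.2% against 39%, 42.0% and 38.6%) but not of Plzf lu/lu plate 3 (22.2% against 18.7%). Dazl was found in 83.0% of carrying, 93.9% of other and 18.5% of the 27 cells, and at 2000 UMIs in 56.9%, 84.8% and 9.09%. Zbtb16 was found in 26.7% and 27.6%, and at 2000 UMIs in 5.38% and 11%. Eomes itself was found in 11 of 135 carrying cells (8.15%) and in 7.0% of other cells, and at 2000 UMIs in 1 of 130 (0.769%) and 29 of 1037 (2.80%), so the order of its shares turned with depth and no difference is read from them.

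For spermatid genes the same comparison gave a different order. Akap4 was found in 61.5% of carrying, 2.78% of other and 7.41% of the 27 Sertoli list cells, and at 2000 UMIs in 29.2%, 1.16% and 4.55%. Odf1 was found in 71.1%, 5.57% and 22.2%, and Acr in 42.2%, 3.14% and 18.5%. Ldhc was found in 92.6% of carrying, 31.8% of other and 92.6% of the 27 cells, so no difference in share is read between the first and the last. At 2000 UMIs Ldhc was found in 84.6% of carrying, 17.9% of other and 81.8% of the Sertoli list cells, with 763 UMIs in 130 carrying cells and 76 in 22 Sertoli list cells.

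Carrying cells held both kinds of transcript in varied proportion. Dazl or Ddx4 had a UMI in 121 of them, and 14 cells (8 Plzf +/+ and 6 Plzf lu/lu) had neither. Over the 135 cells, the percent of UMIs in the 5 spermatid lists ran from 0.127% to 8.66% (median 1.84%), against a median of 0.163% in other cells. Across these cells it was related to the percent in the undifferentiated list with a Spearman rho of -0.615 and to the percent in the 6 genes with a rho of 0.435. These are descriptions across cells that share libraries and whose percentages share a total. With the mitochondrial percent rho was -0.560, and with UMIs per cell it was 0.300.

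**Figure D5:**
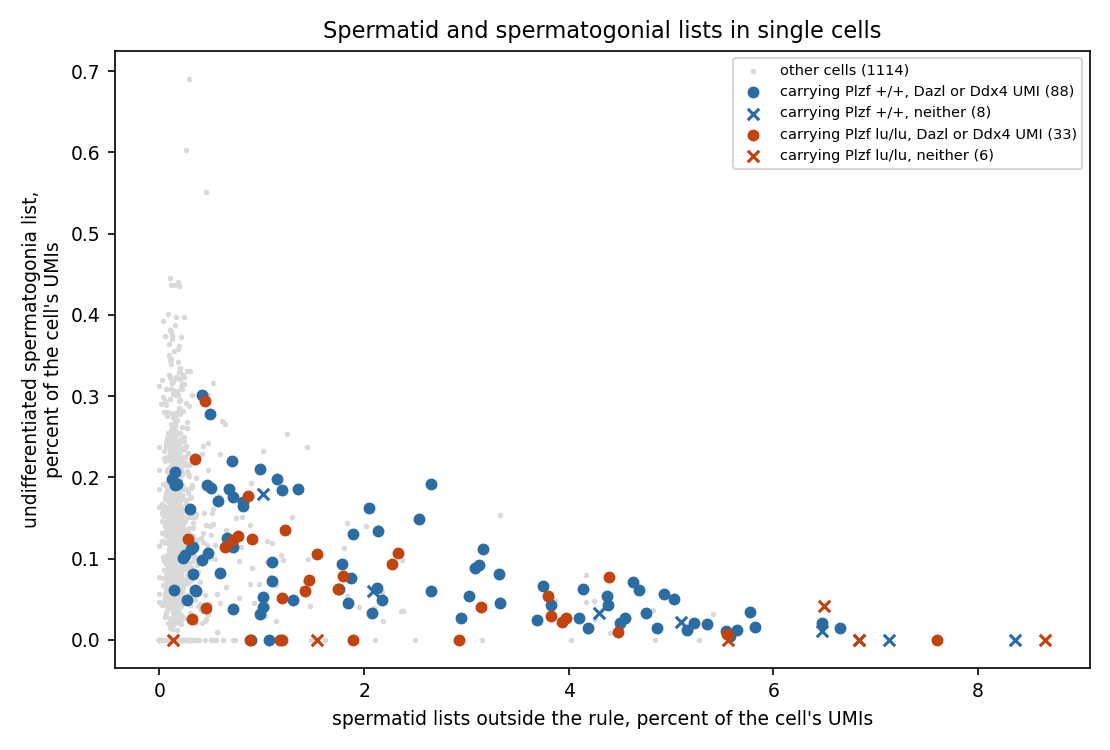
Each point is a cell, with the percent of its UMIs in the 5 spermatid lists outside the rule on the x axis and in the undifferentiated spermatogonia list on the y axis; crosses are carrying cells with no UMI of Dazl or Ddx4. Carrying cells spread from 0.127% to 8.66% on the x axis, those with neither gene include the cell farthest to the right, and gray other cells crowd near the left edge.

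The spermatid lists were also higher in cells just below the rule's limit. Their median percent of UMIs was 0.155% in the 575 cells with none of the 6 genes' UMIs, 0.160% in the 283 cells with 1 UMI and 0.178% in the 215 cells with 2 to 4. It was 0.490% in the 41 cells with 5 to 9 UMIs, 0.717% with 10 to 19, 1.20% with 20 to 49, 1.23% with 50 to 99 and 4.40% with 100 or more. Every cell of the last class had at least 1% of its UMIs in these lists, against 43.6% of cells with 10 to 19 UMIs and 1.39% of those with none. Dazl was found in 95% of cells with no UMI of the 6 genes, in 80.5% of those with 5 to 9, in 82.1%, 90.3% and 89.5% of the next 3 classes and in 76.1% of those with 100 or more, with no steady order. These shares are at own depth, and the median was 5157 UMIs in the first class and 14772.5 in the last.

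Among carrying cells, 90 had at least 1% of their UMIs in the 5 spermatid lists (63 Plzf +/+ and 27 Plzf lu/lu) and 45 had less. The 90 cells had a median of 106.5 UMIs of the 6 genes and 3.43% mitochondrial UMIs, and the 45 cells had 20 and 4.94%. Gfra1 was found in 46 of the 90 and 27 of the 45, and Dazl in 70 and 42, at median depths of 11275.5 and 6824 UMIs. The mean percent of UMIs in the undifferentiated list was 0.0538% in the 90 and 0.132% in the 45, beside 0.140% in cells with none of the 6 genes. The mean percent in the meiotic list was 0.215% and 0.171%.

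Genes of other testis cells were looked at in the same sums. Of 19 Sertoli cell genes 9 passed the filter and all 9 were higher in carrying cells, beside 29.0% of all genes, with a median log2 fold change of 2.13. A gene low in other cells, such as Rhox8 (3.77 to 26.7 CPM there), could pass the filter through carrying cells, so this count is a description. Clu, which codes for clusterin, stood at 105, 47.2, 102 and 849 CPM in carrying and 30.7, 27.2, 14.5 and 131 CPM in other cells (edgeR, log2 fold change 2.15 ± 0.25 SE, adjusted p = 9.55e-08), and the Plzf lu/lu library was far above the rest. Cst12 (2.19), Cst9 (2.06) and Aard (2.44) rose likewise. Without the replicate block the calls of Clu, Cst12 and Cst9 were lost, at 2.46, 2.32 and 2.00. The summed level of the list was 498, 384, 672, 2888 and 717 unscaled CPM in carrying cells of Plzf +/+ plates 1, 2 and 4 and Plzf lu/lu plates 3 and 4. In other cells it was 185, 228, 113, 729 and 706. Of its defining genes Fshr had 1 UMI in carrying and 2 in other cells, Sox9 34 and 59 (17.9 and 7.89 unscaled CPM) and Wt1 40 and 37 (21.1 and 4.95), while Amh was not analysed here. Plzf lu/lu plate 3 gave 26 of the 34 and 29 of the 40 UMIs, and without it the levels were 5.74 and 4.29 for Sox9 and 7.89 and 4.66 for Wt1. Without the cells that had 10 or more UMIs of the list, 3 of its genes passed the filter and 1 was called higher, beside 21.4% of all genes in that fit. That setting removed cells by the list itself.

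Cells rich in Sertoli transcripts were set beside the rest. Of 82 cells with at least 10 UMIs of the Sertoli list 43 were carrying cells (52.4%, exact 95% interval 41.1 to 63.6), against 92 of the remaining 1167 (7.88%, 6.40 to 9.58). By library they were 3 of 9, 10 of 19, 9 of 12, 20 of 37 and 1 of 5, and both counts favor deep cells. With the list at 1% or more of a cell's UMIs, a limit chosen after seeing the data, 6 of 27 cells were carrying cells (22.2%, 8.62 to 42.3), against 129 of 1222 (10.6%). Of these 27 cells 22 held a UMI of the 6 genes, with a median of 4 UMIs or 0.113% of the cell. The part of Sertoli cells, of more than 1 cell per well and of free RNA in the carrying cells was not tested.

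Genes listed for further cell types were mostly rare, with Actg2 as the exception. Leydig cell genes summed to 0 to 3.99 unscaled CPM in carrying and 1.42 to 4.47 in other cells over libraries, with Insl3 at 0 and 1 UMIs. Macrophage genes summed to 3.99 to 32.6 and 2.04 to 5.26, endothelial genes to 0 to 18.2 and 18.4 to 53.6, and erythroid genes to 0 to 14 and 0 to 4.27. For peritubular myoid cells the sums were 88 to 359 and 3.40 to 9.49, of which Actg2, a smooth muscle actin, held 177 UMIs in carrying and 10 in other cells. Actg2 stood at 85.5, 138, 105 and 80.3 CPM in carrying and 1.33, 1.51, 0 and 1.78 CPM in other cells, and it passed the filter through the carrying cells alone, so no test is given. Of the other smooth muscle genes of the list Acta2 had 21 and 15 UMIs (11.1 and 2.01 unscaled CPM), Tagln 10 and 10 (5.28 and 1.34), Cnn1 2 and 4 and Myh11 0 and 5. Plzf lu/lu plate 3 gave 15 of the 21 Acta2 and 7 of the 10 Tagln UMIs in carrying cells, and without it the levels were 4.30 and 0.745 for Acta2 and 2.15 and 1.49 for Tagln. None of these 4 passed the filter. Of the T and NK list, Cd3d, a T cell receptor chain, had 40 UMIs in carrying and 15 in other cells, and as it passed the filter through the carrying cells alone no test is given, while Cd3e had 5 and 47 and Cd3g 3 and 30. Nkg7 stood at -0.32 (edgeR adjusted p = 0.681) and the endothelial gene Egfl7 at -0.25 (0.681). The part of these cell types was not tested.

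The genes with the largest fold changes outside the rule were nearly absent from other cells. In the 4 libraries Klk1b8, a kallikrein gene, had 222 UMIs in carrying and 1 in other cells, a ratio of 863 per UMI sequenced (exact 95% counting interval 153 to 34252). Gm498 had 155 and 1 (ratio 603), 1700062I23Rik 89 and 1 (346), Cstl1 166 and 2 (323) and Gm11780 209 and 3 (271, 91.4 to 1324). Banf2, Gm14285, Cyp2a12 and 1700016C15Rik had 75, 50, 44 and 43 UMIs in carrying cells and 0 in other cells. They were at least 97.2, 64.8, 57.0 and 55.7-fold higher, against a limit of 3 UMIs over the group. With H2afb1 these are the 10 genes that led. They were picked for the largest fold changes and passed the filter on low counts through the carrying cells. Their ratios are therefore a description, and no test is given. Of the spermatid lists Fscb (113 and 3 UMIs, ratio 147, 48.9 to 721) and Cst13 (98 and 3, ratio 127, 42.2 to 627) were also near 0 in other cells. Klk1b8 belongs to a family of near-identical genes among which 3′ reads can be split, so its count is uncertain.

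The genes with the largest decrease were of low abundance. Gm20541 had 2 UMIs in carrying and 124 in other cells, a ratio of 15.9 in favor of other cells (4.32 to 133). Gm16073 had 3 and 121 (10.4) and Cda, a cytidine deaminase, 3 and 113 (9.69). 0610010K14Rik, Nipal3, Zfp799, Rian, Zfp120, Wscd1 and Pusl1 had log2 fold changes of -2.48 to -2.0. The rule that named these 10 asked for a decrease in every library. They passed the filter on low counts through the other cells, so their calls and ratios are a description. The calls of Zfp120 (-1.88) and Zfp799 (-2.05) were lost without Plzf +/+ plate 4, and that of Wscd1 without Plzf +/+ plate 2 (-1.43) or Plzf lu/lu plate 3 (-2.01). Rian is an imprinted noncoding RNA, and no gene of the spermatogonial lists was among them.

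The genotypes were also compared within carrying cells. On Plzf lu/lu plate 3 the 6 genes summed to 9921 unscaled CPM in the carrying cells, against 18333, 21131 and 19895 on Plzf +/+ plates 1, 2 and 4, and the 3 cells of Plzf lu/lu plate 4 gave 47936. The Plzf lu/lu values thus lay on both sides of the Plzf +/+ values. With a limit of 5 UMIs both Plzf lu/lu libraries entered, with 45 and 6 cells. Of 9485 genes 6 were higher (0.0633%) and 0 lower in Plzf lu/lu at an edgeR adjusted p under 0.05, and 453 had an unadjusted p under 0.05. DESeq2 called 3, all higher. At the rule's limit of 10 UMIs, with the library of 3 carrying cells kept, 18 of 8883 genes were higher (0.203%) and 0 lower by edgeR, with 306 at an unadjusted p under 0.05; 5 of the 6 genes were among the 18, and 4 of the 18 (Cldn11, Clu, Cst12 and Inha) stand on the Sertoli list. The 6 genes called at 5 UMIs were Amhr2, Cldn11, Gm12751, Gstm2, Rhox8 and Rps15a-ps8, and none belongs to the spermatid lists. Amhr2, a receptor gene of Sertoli cells, stood at 32.6, 16.9 and 24.1 CPM in Plzf +/+ and 176 and 124 CPM in Plzf lu/lu (edgeR, log2 fold change 2.80, adjusted p = 0.00646). Rps15a-ps8, a pseudogene that may share reads with its parent gene, had the smallest adjusted p, at a log2 fold change of 2.89 (edgeR, adjusted p = 0.00059). The calls changed with the Plzf +/+ library left out. No gene was called without Plzf +/+ plate 4 (152 at an unadjusted p under 0.05 by edgeR). Rps15a-ps8 and Gm12751 were called without Plzf +/+ plate 2, and 32 genes without Plzf +/+ plate 1. Leaving out a Plzf lu/lu library left 1 of that genotype, so effect sizes alone are given. Without Plzf lu/lu plate 3 the log2 fold changes of Rps15a-ps8 and Amhr2 were 2.91 and 2.39. Without Plzf lu/lu plate 4 they were 2.84 and 2.94. Without the cells that had 10 or more Sertoli list UMIs Rps15a-ps8 was the gene called. Cldn11 and Rhox8 stand on the Sertoli list, which was also at its highest in the carrying cells of Plzf lu/lu plate 3. In other cells the list was likewise higher in both Plzf lu/lu libraries (729 and 706 unscaled CPM) than in Plzf +/+ (113 to 228). The part of Sertoli cell transcripts in the difference was not tested.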

How the data were processed

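The authors deposited raw UMI counts per gene symbol and cell, 1 table per genotype, with no normalization. Per the labels, reads were 3′ tags from 384-well plates, and the submitters' processing notes name bcl2fastq 2.18.0.12, Picard 2.9.3, STAR 2.5.4a and GRCm38. The tables hold 26041 gene symbols in all, 1249 cells and 9370123 UMIs, with 612 to 95069 UMIs per cell, and a symbol missing from 1 table was taken as 0 there. The ending of each cell name, matched to the sample titles, gave the library, and the well came from a deposited table of cell barcodes. Well barcodes recur by design: 358 of 376 stood in 2 or more libraries and 0 in both libraries of plate 4. On plate 4 the table gave the genotype, since 5 Plzf +/+ cells, none of them carrying, lie in wells labelled Plzf lu/lu. No doublet caller was run.

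UMIs of carrying and of other cells were summed per library, filtered by filterByExpr, scaled by TMM and tested with edgeR 4.0.16 (R 4.3.3; glmQLFit, robust, and glmQLFTest) with the library as a block, because both sums of a library share its plate and genotype. Benjamini-Hochberg adjustment ran over all 11227 genes fitted, with a threshold of 0.05. These include the 6 genes of the rule, which were then left out of the 11221 genes counted. In simulated counts for this comparison (11227 genes) 81.5% of 184 changed genes were recovered (64.5% of those changed by 1 on the log2 scale and 98.9% of those changed by 2), with 12 false calls among 162. The simulation changed 200 genes, evenly up and down, far fewer than the real fit called. Its rates need not hold for the real fit. Shares and medians were compared over libraries by exact permutation. Intervals are exact Clopper-Pearson and, like limits of 3 counts, cover counting error only. Cells were thinned to 2000 UMIs with seed 1. Alternatives were other cutoffs, scalings, filters, DESeq2 1.42.0, no replicate block and leaving out cells or libraries.

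The text names the 6 genes of the rule, the 4 genes of each list with the highest CPM in carrying cells plus Gfra1, Zbtb16, Eomes, Dazl, Ddx4, Ldhc, Acr, Akap4, Odf1, Sycp3 and Kit, and the 10 largest and 10 smallest fold changes called with the same direction in every library. The members and lists were chosen with earlier results of these data known.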

Additional observations from a re-analysis of the deposited data

How the results depend on the processing

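The difference in the share of carrying cells (Plzf lu/lu minus Plzf +/+, -1.20 percentage points) had the opposite sign at 5 UMIs (0.904), at 20 UMIs (0.228) and when cells were thinned to 2000 UMIs (1.23), and ranged from -3.96 to 0.584 when 1 library was left out, the lowest without Plzf +/+ plate 1 and the highest without Plzf lu/lu plate 4; no setting gave an exact permutation p under 0.333. Of the genes called between carrying and other cells, 1905 were higher and 386 lower without the cells over 4 times the median UMIs, of which 1892 and 372 were among the 3257 and 1513. The count of lower genes was 4120 without scaling factors, 3371 with no filter on low counts and 952 with DESeq2. With 1 library left out, 2776 to 3456 genes were higher and 1087 to 1780 lower. Without the replicate block, which pairs the sums of each library, 3139 were higher and 1118 lower. Of 62 called genes that are named, 47 could be fitted under all 17 alternatives and 37 of these kept call and direction, as did 11 of the other 15 where they were fitted, and Sycp3 turned to -0.000215 without the deep cells. The difference in genes per cell turned to -138 with the 0.2% cutoff. After thinning, the difference between carrying and other cells in the share with a UMI pooled over libraries was -10.2 points for Gfra1 (higher on Plzf lu/lu plate 3, 22.2% against 18.7%), -5.61 for Zbtb16 (13.9% against 14% on Plzf +/+ plate 4) and -27.8 for Dazl. The share of carrying cells among Sertoli list cells was 22.2% with the list at 1% of UMIs. Between genotypes within carrying cells, 6 genes were called at 5 UMIs and with RLE factors. With the library of under 5 carrying cells kept, 18 were called at 10 UMIs, 8 at 20 UMIs and 0 with the 0.2% cutoff (edgeR, 172 at an unadjusted p under 0.05). The count was 2 without the deep cells, 1 without Sertoli list cells, 11 without scaling factors, 55 with no filter and 3 with DESeq2. It was 0 to 32 with 1 Plzf +/+ library left out. Tnp2 was among the genes called without Plzf +/+ plate 1 and with no filter. The rule had read its UMIs to pick the cells, so nothing is read from this call. The causes of these changes were not tested. The settings that add the Plzf lu/lu library of plate 4 (2479 higher, 1951 lower) or leave out cells with 1% of Sertoli list UMIs (3244 and 1574), the 1% limit, and the library of under 5 carrying cells in the genotype fits were chosen after seeing the data.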
